A study of Mus musculus with 37 samples.

Results

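Podocyte messenger RNA of mice 3 weeks into streptozotocin (STZ) diabetes was compared with that of untreated mice over all genes, using the 5 STZ libraries and the 4 control libraries labelled for that time. These are 9 of the 37 libraries of a study of mouse podocytes in a drug-induced (type 1) and a genetic (type 2) model of diabetes. All 9 were of strain C57BL/6 at 3 months of age and held TRAP RNA, that is, RNA isolated with tagged ribosomes, with podocyte given as the cell type. The STZ mice were labelled as having type 1 diabetes, and the controls as normal with no STZ, so a direct effect of the drug and an effect of the diabetes cannot be told apart. Other libraries entered as comparisons: STZ and untreated C57BL/6 mice at 24 weeks (8 months of age, 5 libraries each), eNOS-/- db/db and eNOS-/- mice at 3 months (strain C57BL/6, 5 libraries each), and 1 total RNA library of a whole eNOS-/- kidney. The deposited tables are named for a Cre recombinase driven by a podocyte promoter. The sources used here do not state which ribosomal protein was tagged, the genotype and sex of the type 1 mice, or the STZ dose. The labels do not say that each library came from a separate animal, so p-values measure the spread between these libraries, which may in part be technical.

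Podocytes are the epithelial cells that wrap the glomerular capillaries, and the slit diaphragm between their foot processes, built around nephrin, holds back plasma protein. STZ is a glucose-like alkylating agent that enters cells through the glucose transporter GLUT2, encoded by Slc2a2, and kills the insulin-producing beta cells of the pancreas. Proximal tubule cells of the kidney carry the same transporter.

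The libraries held 14005245 to 19099900 counts in controls and 10673102 to 24685574 in STZ mice. Podocyte markers were abundant in all 9: the 14 tested summed to 14120 to 29270 CPM (read counts scaled to library size) in controls and 11640 to 26300 in STZ libraries. Nephrin (Nphs1) and podocalyxin (Podxl) were 113 and 65.4 times as high in TRAP libraries of 3-month eNOS-/- controls as in the whole kidney library. RNA of other cells was present too, since the 24 proximal tubule markers summed to 15710 to 25780 CPM in controls and 7734 to 13920 in STZ libraries. Endothelial markers summed to 369 to 704 and 401 to 751 CPM, and macrophage markers to 48.6 to 122 and 119.6 to 349, in control and STZ libraries respectively. Controls detected 15558 to 16362 genes, and STZ libraries 1 to 5 detected 19940, 19712, 21050, 14320 and 18044.

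STZ libraries 1, 2 and 3 stood apart. Their pairwise correlations of log2 CPM across genes were 0.979 to 0.984, against 0.895 to 0.941 among controls and 0.914 to 0.959 for the other STZ pairs. The variance between them was 7.02 to 11.9 times that of sampling noise. Among controls this ratio was 28.4 to 62.5, and for the other STZ pairs 18.9 to 61.6. These STZ libraries were thus closer to each other than other replicates were, and were kept as 3 libraries. STZ libraries 1 to 3 had the lowest podocyte marker sums of the STZ group (12020, 13100 and 11640 CPM, against 26300 and 24340 in STZ libraries 4 and 5). Their macrophage sums were the highest (249, 301 and 349 CPM, against 119.6 and 122). Counts of most lists are therefore given also for STZ libraries 4 and 5 alone against the 4 controls. Those with the number of genes detected as a covariate are given too. Both fits were chosen after seeing the data. STZ libraries 4 and 5 were unusual as well, with mean log2 CPM of immediate-early and heat shock genes of 6.359 and 5.743. Controls had 4.881 to 5.025, and STZ libraries 1 to 3 had 4.644, 4.847 and 4.813. A call lost with STZ libraries 4 and 5 only thus does not show which libraries are atypical. The part of library complexity and marker content in the results was not tested beyond these fits.

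**Figure D1:**
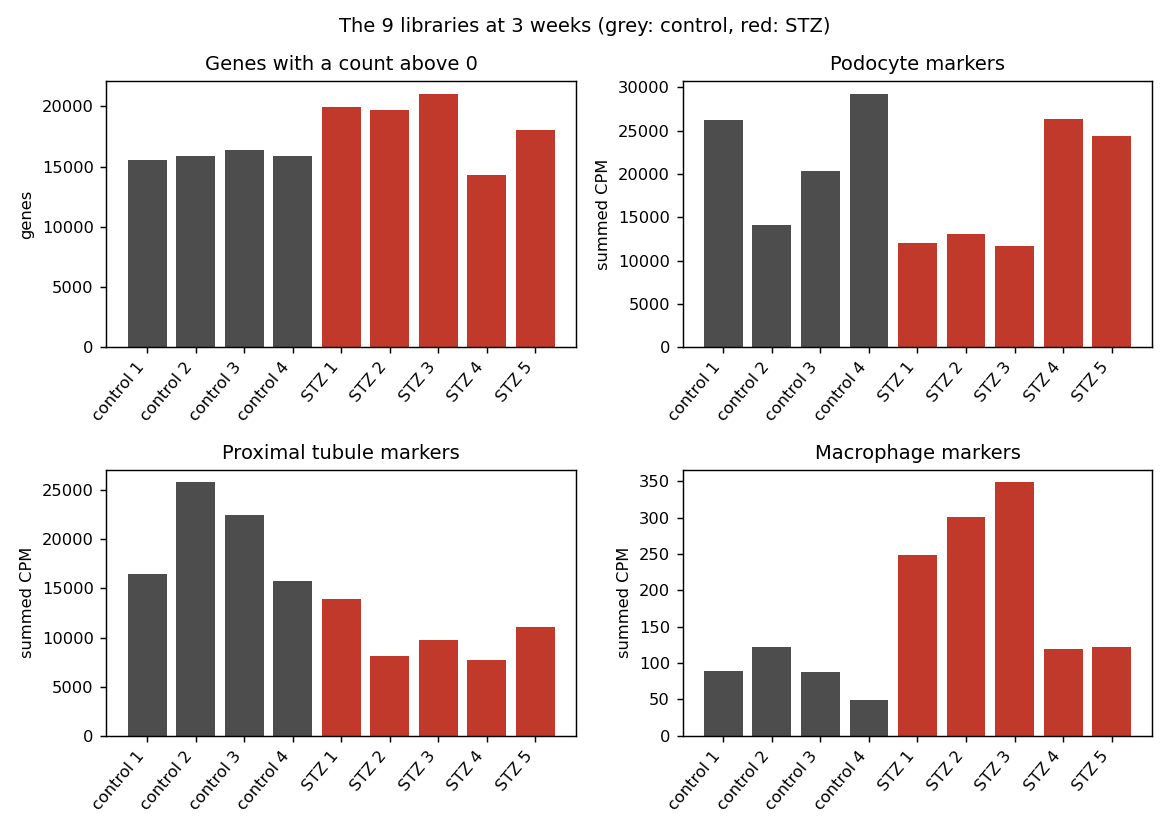
Each bar is 1 library at 3 weeks (4 controls and 5 STZ): the number of genes with a count above 0, and the summed CPM of podocyte, proximal tubule and macrophage markers. STZ libraries 1 to 3 have podocyte sums of 11640 to 13100 CPM and macrophage sums of 249 to 349, and STZ libraries 4 and 5 lie within the control range on both sums, though above it on the mean log2 CPM of the macrophage markers (2.06 and 2.29, controls 0.94 to 1.89).

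Of 16279 genes tested, 1058 passed an adjusted p of 0.05 in edgeR's quasi-likelihood test (6.5%): 616 were higher in STZ libraries (3.78%) and 442 lower (2.72%). The groups did not overlap at 690 genes with STZ above (4.24%) and 630 with STZ below (3.87%). The median log2 fold change over all genes was 0.0024. The count was 611 without STZ library 3, 654 without STZ library 2, 688 without STZ library 1 and 695 without control library 1. It was 94 with STZ libraries 4 and 5 only, with fewer samples, and 405 with genes detected as a covariate. With the spread taken from the 9 libraries alone it was 599.

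Genes enriched in podocyte TRAP RNA took a small part in these calls. Enrichment was taken from the eNOS-/- TRAP and whole kidney libraries, none of which is in the comparison. Of 635 genes at least 4 times higher in TRAP, none was called higher and 6 were called lower, with a median log2 fold change of -0.29. Of 7413 genes 1 to 4 times higher in TRAP, 167 rose and 135 fell. Of 8231 genes higher in whole kidney, 449 rose and 301 fell. Separately, 255 genes had a count of 0 in all 4 controls. They passed the filter only through other libraries and could only be called higher. That call was made for 81 of them (31.8%, against 3.78% of all genes tested). Their direction was thus set in advance, and the share is not a result about them. In such bulk libraries, fewer cells of a type and less RNA per cell cannot be told apart.

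**Figure D2:**
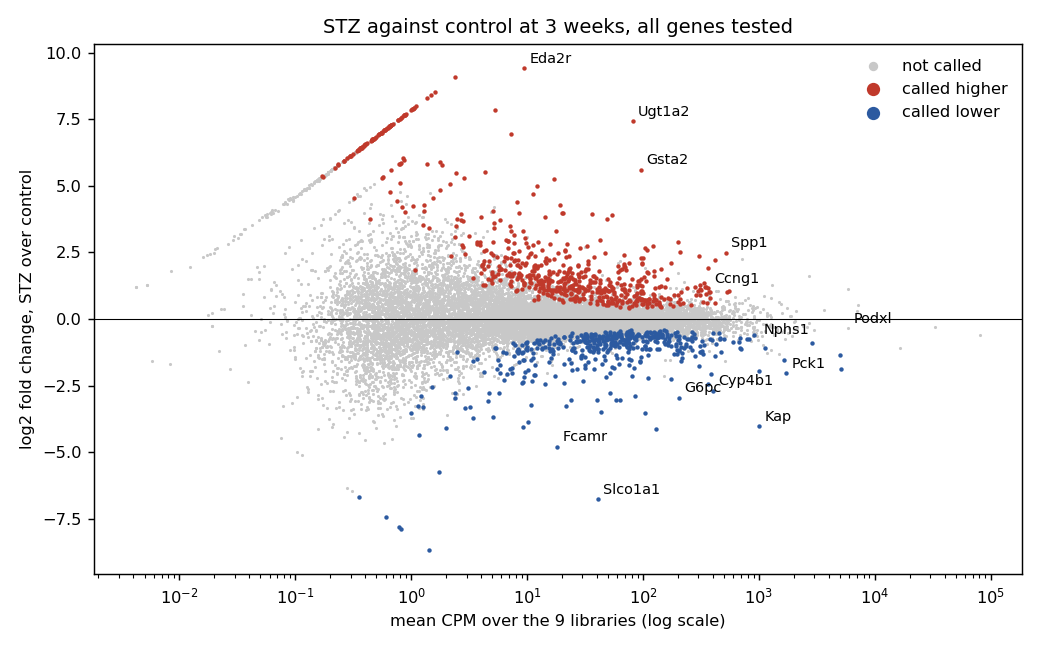
Each point is a gene tested, with its mean CPM over the 9 libraries (log axis) against its log2 fold change (STZ over control), red where called higher (616), blue where called lower (442), and grey where not called. The podocyte genes Nphs1 and Podxl lie below 0 and are not called. The diagonal of points at the upper left holds genes at 0 in the controls, whose fitted fold is not a bound. Genes at 0 in all 9 libraries are not drawn.

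Target genes of p53 rose together. p53 is a transcription factor that DNA damage and other stresses stabilise, and it switches on genes for cell cycle arrest, repair and death. Of 19 members of the p53 list tested, 10 rose and none fell, with a median log2 fold change of 0.93. The count was 9 to 10 when 1 library was left out, 6 with STZ libraries 4 and 5 only and 7 with genes detected as a covariate. The member with the largest fitted change was Eda2r (chrX:97333840-97377216), a receptor of the tumour necrosis factor family that binds ectodysplasin A2. Its level was 0, 0.0748, 0 and 0 CPM in control libraries 1 to 4 and 16.7, 16.2, 16.1, 21.4 and 14.6 CPM in STZ libraries 1 to 5. This was 1 read in the 4 controls together and 1496 in the 5 STZ libraries, a ratio corrected for library totals of 1116.6 with a 95% exact interval of 200.1 to 44131.3 that covers counting error only. The adjusted p was 3.06e-05 (edgeR), and 0.00431 with STZ libraries 4 and 5 only.

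Cyclin G1 (Ccng1, chr11:40748552-40755311), which feeds back on p53, was at 264, 155, 202 and 252 CPM in controls and 493, 462, 478, 429.7 and 562 CPM in STZ libraries. The groups did not overlap, and the log2 fold change was 1.15 ± 0.16 (SE; edgeR adjusted p = 0.000246). Mdm2 (chr10:117688888-117710758), the ubiquitin ligase that degrades p53, was at 70.5, 68.9, 70.0 and 70.9 CPM in controls and 111, 104, 119.9, 121 and 130.3 CPM in STZ libraries. Its 4 controls lay within a narrow band, all STZ libraries lay above it, and its log2 fold change was 0.74 ± 0.13 (edgeR adjusted p = 0.00132). Growth differentiation factor 15 (Gdf15), a secreted stress hormone, went from 3.07 ± 3.89 to 29.8 ± 10.2 CPM (SD, 4 and 5 libraries, here and below), and Plk2, a stress-induced kinase, from 9.36 ± 4.53 to 34.02 ± 5.67 CPM. All 5 STZ libraries lay above all controls for both. The calls of Eda2r, Ccng1, Mdm2, Gdf15 and Plk2 held in each fit that left out 1 library and with STZ libraries 4 and 5 only.

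The death gene Pmaip1 and the p53 targets Phlda3, Trp53inp1, Aen and Zmat3 rose as well, with log2 fold changes of 1.44, 1.11, 0.77, 0.93 and 0.78. Other targets did not pass the test: the cell cycle inhibitor Cdkn1a was at 52.7 ± 56.9 CPM in controls and 71.3 ± 19.9 in STZ libraries (adjusted p = 0.791, edgeR), and the death gene Bax at 12.9 ± 5.33 CPM in controls and 17.1 ± 2.80 in STZ libraries. Trp53 itself, the gene of p53, was at 17.0 ± 6.70 CPM in controls and 18.96 ± 2.38 in STZ libraries (edgeR adjusted p = 0.757). Eda2r was 0.783 times and Ccng1 1.14 times as high in TRAP as in whole kidney RNA.

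The 250 bases before the annotated start of Ccng1 and Mdm2 are shown because each holds a match to the p53 half-site, in capitals (RefSeq, build GRCm38.p6, 5′ to 3′ on the gene's strand). Ccng1 lies on the minus strand at chr11:40755287-40755536 and Mdm2 on the minus strand at chr10:117710759-117711008.
Ccng1: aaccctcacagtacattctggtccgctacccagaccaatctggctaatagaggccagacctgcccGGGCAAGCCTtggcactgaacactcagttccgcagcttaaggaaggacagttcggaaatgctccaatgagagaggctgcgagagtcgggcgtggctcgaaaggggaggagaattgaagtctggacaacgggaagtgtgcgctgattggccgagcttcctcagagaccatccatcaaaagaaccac
Mdm2: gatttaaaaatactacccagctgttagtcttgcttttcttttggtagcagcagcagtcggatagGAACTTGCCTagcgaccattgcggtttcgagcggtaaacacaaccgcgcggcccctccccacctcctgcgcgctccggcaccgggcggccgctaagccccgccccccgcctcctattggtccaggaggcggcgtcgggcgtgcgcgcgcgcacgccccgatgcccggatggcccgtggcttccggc
The matches begin 185 and 186 bases before the start. Over all 32851 RefSeq promoter windows of 250 bases before to 50 after a start, 8.36% held a half-site on either strand, and 9.55% of the 27025 genes with a window had one. Of the p53 list, 16 genes had a window and 8 of these held a half-site, among them 3 of the 7 called genes with a window. Every base of a half-site had to match. Paired half-sites 0 to 1 bases apart were in 0.01% of windows and in none of the 16. Pairs farther apart, or with a mismatch in either half-site, were not counted. The window of Cdkn1a, a list member that was not called, held 2 half-sites (GGACTAGCTT and GAACATGTCT) spaced wider than this limit. Directly beside the Ccng1 match, and beside the second of these in Cdkn1a, lie bases close to a half-site that miss an exact match. The count of pairs therefore does not show that these promoters lack a full element. A match is a description of the letters, not of binding.

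Interferon-stimulated and antigen presentation genes held more rising genes than any other list examined. Interferons make cells display peptides on MHC molecules and express antiviral proteins. Of 28 members tested, 19 rose and none fell, with a median log2 fold change of 1.75, and the groups did not overlap at 22 (STZ above). Summed over the list, controls held 957 to 1283 CPM and STZ libraries 2806 to 4063. The count of calls ran from 14 to 20 when a library was left out, was 8 with genes detected as a covariate, and was 0 with STZ libraries 4 and 5 only, where the median log2 fold change was 1.42.

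The promoter of B2m, the list member whose values are given first, is shown for its match to GAAANNGAAA, the core of the interferon-stimulated response element, in capitals (RefSeq, GRCm38.p6, plus strand, chr2:122147437-122147686, 250 bases before the start, 5′ to 3′).
B2m: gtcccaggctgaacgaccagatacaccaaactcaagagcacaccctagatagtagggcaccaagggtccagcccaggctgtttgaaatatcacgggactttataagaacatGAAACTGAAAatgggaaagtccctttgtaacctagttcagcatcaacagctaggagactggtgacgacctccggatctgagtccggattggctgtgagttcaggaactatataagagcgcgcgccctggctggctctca
The match begins 139 bases before the start. The motif, searched on both strands, was in 3.44% of all RefSeq promoter windows, in those of 3.99% of genes and in 10 of the 22 list members that had one, 8 of them among the 17 called genes with a window. The motif TTCNNNGAA, also searched on both strands, was in 8.3% of windows, in those of 9.55% of genes and in 5 of the 22. These letters are a description and say nothing of binding.

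Beta-2-microglobulin (B2m, chr2:122147686-122153083), the light chain of MHC class I, was at 153, 117, 113 and 182 CPM in controls and 549, 608, 598, 429.9 and 501 CPM in STZ libraries. The groups did not overlap, and the log2 fold change was 1.93 ± 0.38 (edgeR adjusted p = 0.00374), against 1.75 with STZ libraries 4 and 5 only (adjusted p = 0.133). The class I heavy chain H2-D1 went from 345 ± 99.7 to 725 ± 118 CPM and H2-K1 from 182 ± 36.3 to 461 ± 57.6, although reads of these near-identical genes may be split between them. Of the class II pathway, the invariant chain Cd74 was at 94.1, 123, 77.3 and 75.0 CPM in controls and 517, 522, 519.6, 368 and 444 CPM in STZ libraries, and H2-Aa went from 24.7 ± 6.95 to 102 ± 29.3 CPM. Class II genes are made mainly by professional antigen-presenting cells. Macrophage markers moved with this group: 7 of 14 rose and none fell, with the highest sums in STZ libraries 1 to 3, and their part in the result was not tested. The number of macrophage markers called was 3 without STZ library 3 and 4 without control library 4 or STZ libraries 1 or 2. In STZ libraries 4 and 5 the macrophage sums, 119.6 and 122 CPM, lay within the control range, while the mean log2 CPM of the markers, 2.06 and 2.29, lay above that of all controls (0.94 to 1.89). The list's median log2 fold change was 0.60 in that fit, and 0 markers were called with genes detected as a covariate.

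Within the list, Irf7, a transcription factor of the interferon response, rose from 6.69 ± 4.36 to 33.7 ± 11.4 CPM, the RNA-binding protein Ifit1 from 5.21 ± 3.53 to 28.7 ± 7.06 and the virus-tethering protein Bst2 from 9.21 ± 2.96 to 34.5 ± 10.1. The guanylate-binding proteins Gbp8 and Gbp6, interferon-induced GTPases, went from 0.809 ± 1.04 to 30.2 ± 14.5 CPM and from 2.17 ± 1.25 to 34.1 ± 12.5. These belong to a multigene family, so the split of reads between them is uncertain, and neither was in the list. Other members did not pass the test, such as Ifit3 (18.9 ± 5.47 CPM in controls and 38.3 ± 10.6 in STZ libraries, edgeR adjusted p = 0.0860) and the RNA sensor Oas1a (0.589 ± 0.721 CPM in controls and 2.96 ± 1.02 in STZ libraries, adjusted p = 0.134). Irf7, Gbp8 and Gbp6 lost their calls with STZ libraries 4 and 5 only (edgeR adjusted p = 0.0613, 0.139 and 0.168), as did Ifit1 and Bst2.

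Complement and inflammatory genes followed. Of 22 tested, 8 rose and 1, complement factor B (Cfb), fell, with a median log2 fold change of 1.15. Complement calls numbered 1 higher and 0 lower with STZ libraries 4 and 5 only, and 3 and 0 with genes detected as a covariate, and the call of Cfb was lost in some fits that left out 1 library (0 to 1 lower). Complement component C3 (chr17:57203970-57228136), the hub of the complement cascade, was at 58.0, 65.8, 70.7 and 39.2 CPM in controls and 308, 479, 369, 256 and 244 CPM in STZ libraries. The groups did not overlap, and the log2 fold change was 2.51 ± 0.43 (edgeR adjusted p = 0.00158). The adhesion molecule Vcam1 went from 4.35 ± 1.57 to 17.7 ± 4.74 CPM, and the chemokine Cxcl16 from 9.66 ± 2.95 to 32.6 ± 5.23 CPM. Cxcl16 kept its call with STZ libraries 4 and 5 only (edgeR adjusted p = 0.0486), where 1 member of the list was called higher. Of the macrophage list, the lysozyme of myeloid cells (Lyz2) went from 12.5 ± 4.78 to 42.1 ± 18.7 CPM. The fractalkine receptor Cx3cr1 was at 1.11, 1.27, 3.98 and 1.35 CPM in controls and 19.6, 26.3, 26.2, 3.84 and 3.20 in STZ libraries, so that STZ libraries 1 to 3 were high and STZ libraries 4 and 5 overlapped the controls. No macrophage marker was called with STZ libraries 4 and 5 only, and left-out libraries moved the macrophage count between 3 and 9.

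Markers of tubular injury rose. Of 8 tested, 4 rose and none fell, with a median log2 fold change of 2.53, and of 1.05 with STZ libraries 4 and 5 only. Osteopontin (Spp1, chr5:104435118-104441050), a secreted matrix glycoprotein, was at 147, 153, 169 and 114 CPM in controls and 819.9, 652, 984, 899.5 and 728 CPM in STZ libraries. The lowest STZ library was above the highest control (log2 fold change 2.49 ± 0.38, edgeR adjusted p = 0.000546). Kidney injury molecule 1 (Havcr1), made by damaged proximal tubule, went from 3.99 ± 2.79 to 62.6 ± 24.6 CPM, and keratin 20 (Krt20) from 0.744 ± 0.688 to 19.7 ± 6.81. Spp1 and Krt20 stayed called with STZ libraries 4 and 5 only (edgeR adjusted p = 0.0303 and 0.0376), and Havcr1 did not (0.0593). Lipocalin 2 (Lcn2), an iron-trapping injury marker, was called with a log2 fold change of 3.29 but not without control library 1 (adjusted p = 0.0751) or STZ library 3 (0.0572).

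**Figure D3:**
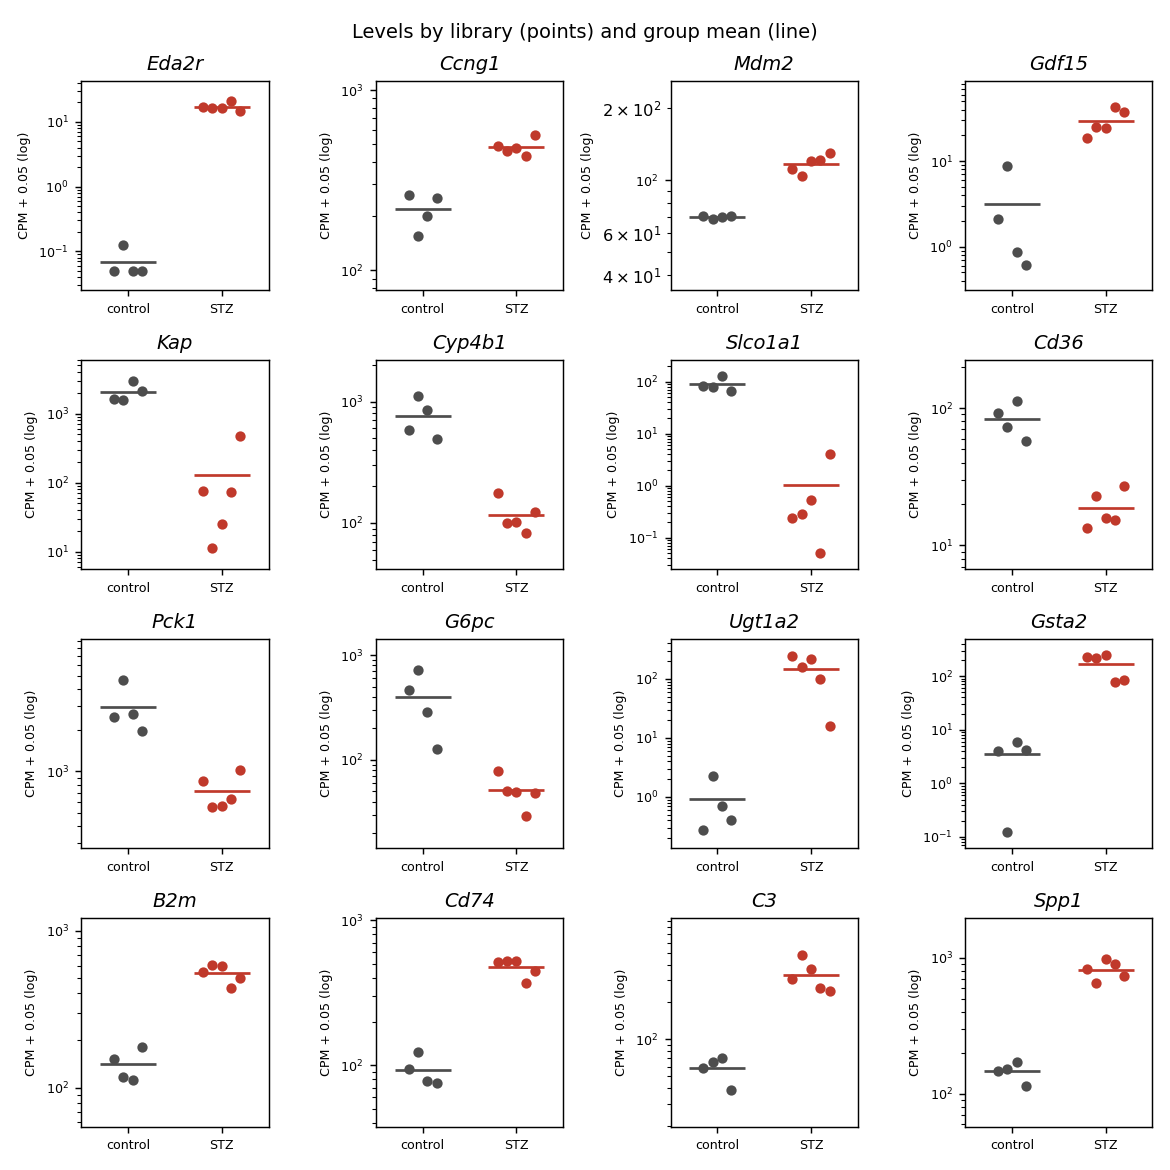
Levels of 16 genes by library as CPM + 0.05 on a log axis, with points for libraries and lines for group means (4 controls and 5 STZ). The groups do not overlap in any of the 16, a condition of the naming rule for some of them, such as Kap and Ugt1a2. Over all genes tested, the groups did not overlap at 4.24% with STZ above and 3.87% with STZ below. Kap runs within the STZ group from 11.1 to 467 CPM.

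Androgen-responsive genes of the proximal tubule fell. Of 17 members tested, 12 fell and none rose, with a median log2 fold change of -2.43, and their sum was 4220 to 6830 CPM in controls and 746 to 1614 in STZ libraries. The count was 10 to 12 when a library was left out, 3 with STZ libraries 4 and 5 only (median -2.08) and 6 with genes detected as a covariate. Kidney androgen-regulated protein (Kap, chr6:133849851-133853762) was at 1624, 1583, 3013 and 2155 CPM in controls and 74.9, 11.1, 24.6, 72.0 and 467 CPM in STZ libraries. Its log2 fold change was -4.02 ± 0.97 (edgeR adjusted p = 0.0180), and without STZ library 1 it missed the threshold (adjusted p = 0.0519). With STZ libraries 4 and 5 only, Kap had a log2 fold change of -2.92 and was not called (edgeR adjusted p = 0.342). Nor was it called with genes detected as a covariate (edgeR adjusted p = 0.119). The organic anion carrier Slco1a1 (chr6:141907282-141946962) was at 82.9, 78.7, 132 and 66.8 CPM in controls and 0.190, 0.238, 0.475, 0 and 4.07 CPM in STZ libraries. Slco1a1 was not called with STZ libraries 4 and 5 only (edgeR adjusted p = 0.0736). Cyp4b1 (chr4:115624725-115647723), a monooxygenase, was at 578, 1101, 856 and 495 CPM in controls and 176, 101, 102, 83.3 and 122 in STZ libraries. The groups of all 3 genes were apart, and Cyp4b1 had a log2 fold change of -2.70 ± 0.30 (edgeR adjusted p = 3.06e-05, and 0.00431 with STZ libraries 4 and 5 only).

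The steroid-metabolising enzymes Akr1c14 and Cyp7b1 fell by 3.48 and 3.05 on the log2 scale, the monooxygenase Cyp2e1 by 2.43 and the acyl-CoA synthetase Acsm3 by 3.53. Acsm3 overlaps Eri2 on the other strand. The same holds, with other genes, for Nphs1, Cdkn1a, Irf7, Vcam1, Cxcl16, Cx3cr1, Tef, Mt2, Ugt1a2, Slc34a1, Umod, Ugt1a10, Pfkp, Cyp51, Arntl, Kcna6, 2010111I01Rik, Col4a1, Col4a2, Fn1, Msn, Ace and Thbs1, and no source used here states whether reads were counted by strand. Androgen-responsive genes that did not pass the test were Odc1, the first enzyme of polyamine synthesis (384 ± 149 CPM in controls and 304 ± 77.4 in STZ libraries), Gusb, Hsd11b1 and Timd2. Kap was 0.406 times, Cyp4b1 0.374 times and Slco1a1 0.466 times as high in TRAP as in whole kidney RNA.

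Members of other proximal tubule lists were lower too. The marker list holds Kap and Cyp4b1, and the transporter list Slco1a1, so these counts are not separate from those above. Of 24 proximal tubule markers, 13 fell and none rose, with a median log2 fold change of -0.81. The number was 8 to 12 when a library was left out (8 without control library 2 or STZ library 3) and 4 with STZ libraries 4 and 5 only, where the median was -1.01. It was 6 with genes detected as a covariate. Megalin (Lrp2), the endocytic receptor, went from 3852 ± 1190 to 2056 ± 422 CPM, and the phosphate carrier Slc34a1 from 1611 ± 525 to 755 ± 297. Of 19 organic ion transporters, 9 fell and 1, the efflux pump Abcc4, rose. Transporter calls numbered 0 higher and 4 lower with STZ libraries 4 and 5 only, and 0 and 6 with genes detected as a covariate. The phosphate and organic anion carriers Slc17a3 and Slc17a1 went from 141 ± 31.9 to 32.4 ± 6.86 CPM and from 144 ± 33.6 to 71.3 ± 13.1, and the anion exchanger Slc22a7 from 54.6 ± 15.8 to 10.9 ± 4.11 CPM. These 3 calls held with STZ libraries 4 and 5 only.

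Markers of later nephron segments gave other values. Of 7 loop of Henle markers, 1, the potassium channel Kcnj1, rose, from 152 ± 25.3 to 257 ± 59.6 CPM with overlapping groups, a call lost in 6 of 9 fits that left out 1 library and with STZ libraries 4 and 5 only. Uromodulin (Umod) of the same segment was at 645 ± 223 CPM in controls and 482 ± 128 in STZ libraries (edgeR adjusted p = 0.353). The calcium buffer Calb1 of the connecting tubule rose from 185 ± 37.2 to 385 ± 97.1 CPM, a call lost without control library 1 (adjusted p = 0.0531), control library 4 (0.0541) or STZ library 3 (0.0569).

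Detoxifying enzymes moved in both directions. Of 24 cytochrome P450 and conjugating enzymes, 10 fell and 5 rose. The number of risers was 3 without control library 1 or STZ libraries 1, 2 or 3. Detoxifying enzyme calls numbered 1 higher and 3 lower with STZ libraries 4 and 5 only, and 3 and 5 with genes detected as a covariate. The glucuronosyltransferase Ugt1a2 (chr1:88200601-88218997) was at 0.223, 2.24, 0.663 and 0.363 CPM in controls and 240.2, 157, 217, 100.2 and 15.8 CPM in STZ libraries. The groups were apart, STZ library 5 was the lowest of its group, and the log2 fold change was 7.42 ± 0.94 (edgeR adjusted p = 0.000184). Ugt1a10 of the same locus rose from 1.68 ± 1.56 to 33.2 ± 10.1 CPM, but genes of that locus share exons, and a part of these reads may be counted for either. The glutathione transferase Gsta2 was at 4.01, 0.0748, 5.75 and 4.09 CPM in controls and 224, 219, 249.5, 76.8 and 84.1 in STZ libraries (log2 fold change 5.61 ± 0.87, edgeR adjusted p = 0.000956). Gsta2 was not called with STZ libraries 4 and 5 only (edgeR adjusted p = 0.0598).

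Of 24 oxidative stress genes, 7 rose and 2 fell. Oxidative stress calls numbered 2 higher and 0 lower with STZ libraries 4 and 5 only, and 4 and 2 with genes detected as a covariate, and the number that fell was 1 without control library 1. The antioxidant enzymes Nqo1 and Srxn1, targets of the oxidant sensor NRF2, rose from 17.4 ± 4.43 to 52.7 ± 24.4 CPM and from 58.1 ± 9.20 to 109 ± 14.6, and the metal-binding metallothionein Mt2 went from 13.2 ± 5.04 to 39.7 ± 9.44 CPM. Superoxide dismutase 1 (Sod1) fell from 299 ± 81.1 to 145 ± 29.6 CPM. Vitamin D 1-alpha-hydroxylase (Cyp27b1) fell from 26.4 ± 14.0 to 4.80 ± 3.33 CPM (edgeR adjusted p = 0.0143, and 0.0576 without control library 2).

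Genes of glucose handling changed. Gluconeogenesis makes glucose from lactate and amino acids, in kidney within the proximal tubule, and glycolysis breaks glucose down. Of 12 gluconeogenesis and glucose transport genes, 5 fell and 1 rose. The number that fell was 2 without control libraries 2 or 3 or STZ libraries 2, 3 or 4. Calls in this list numbered 0 higher and 1 lower with STZ libraries 4 and 5 only, and 0 and 2 with genes detected as a covariate. Glucose-6-phosphatase (G6pc, chr11:101367561-101377903), the last step, was at 463, 717, 286 and 127 CPM in controls and 77.8, 50.7, 49.7, 28.8 and 48.5 CPM in STZ libraries. The log2 fold change was -2.96 ± 0.39 (edgeR adjusted p = 0.000189), and -3.33 with STZ libraries 4 and 5 only (adjusted p = 0.0287). Phosphoenolpyruvate carboxykinase (Pck1, chr2:173153048-173159273), the rate-controlling step, was at 2519, 4691, 2646 and 1976 CPM in controls and 856, 550.3, 559, 623 and 1030 CPM in STZ libraries, with a log2 fold change of -2.03 ± 0.34 (edgeR adjusted p = 0.00113). Both sets of groups were apart, but Pck1 was not called with STZ libraries 4 and 5 only (edgeR adjusted p = 0.093). G6pc was 0.394 times and Pck1 0.324 times as high in TRAP as in whole kidney RNA. The GLUT2 gene Slc2a2 rose from 51.7 ± 9.98 to 119 ± 41.4 CPM, with overlapping groups.

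Of 20 glycolysis and pyruvate dehydrogenase kinase genes, 5 rose and none fell, with a median log2 fold change of 0.45. Hexokinase 2 (Hk2) went from 1.72 ± 0.779 to 10.97 ± 5.39 CPM, the platelet-type phosphofructokinase Pfkp from 54.6 ± 10.7 to 146 ± 49.4 and Pfkfb3, which makes an activator of phosphofructokinase, from 30.3 ± 10 to 64.3 ± 14.6. The number that rose was 8 without STZ library 4, 2 with genes detected as a covariate and 0 with STZ libraries 4 and 5 only. The alanine aminotransferase Gpt2, which links alanine to pyruvate, was at 29.98, 32.5, 43.2 and 35.6 CPM in controls and 211, 186, 160.3, 97.0 and 87.1 CPM in STZ libraries (log2 fold change 2.07 ± 0.28, edgeR adjusted p = 0.000184). Of 26 insulin and IGF signalling genes, none rose and 2 fell. That count was 1 without control libraries 1, 2 or 4 or STZ libraries 1, 2, 3 or 5. It was 1 with STZ libraries 4 and 5 only, and 1 with genes detected as a covariate. Igfbp4, which binds insulin-like growth factors, was at 528, 629, 441 and 385 CPM in controls and 161, 123, 145, 146 and 159.8 in STZ libraries, without overlap (log2 fold change -1.76 ± 0.24, edgeR adjusted p = 0.000184). The insulin receptor gene Insr was at 156 ± 34.7 CPM in controls and 163 ± 15.9 in STZ libraries (edgeR adjusted p = 0.901).

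Lipid genes moved both ways. The fatty acid transporter Cd36 fell from 83.9 ± 23.4 to 18.8 ± 5.79 CPM, and Ppara, the receptor that drives fatty acid oxidation, from 117 ± 42.3 to 54.9 ± 6.11. The fatty acid hydroxylases Cyp4a10 and Cyp4a14, close paralogs and classical Ppara targets, rose from 80.2 ± 20.0 to 228 ± 45.4 and from 29.6 ± 26.2 to 198 ± 55.3 CPM. In all, 3 of 28 members of that list rose and 3 fell. Fatty acid calls numbered 0 higher and 1 lower with STZ libraries 4 and 5 only, and 2 and 1 with genes detected as a covariate. Of 23 cholesterol genes, 4 rose and 2 fell. Risers numbered 2 without control library 1 or STZ libraries 1, 2 or 3, and the number that fell was 1 without control libraries 3 or 4. Cholesterol calls numbered 0 higher and 0 lower with STZ libraries 4 and 5 only, and 0 and 2 with genes detected as a covariate. The lipid carrier apolipoprotein E (Apoe) rose by 2.11 and squalene epoxidase (Sqle) by 1.07 on the log2 scale, while the synthetic enzyme Cyp51 fell by 1.24.

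Several clock genes were lower. Of 18 circadian genes, 5 fell and none rose, with a median log2 fold change of -0.80. Clock calls numbered 0 higher and 2 lower with STZ libraries 4 and 5 only, and 0 and 3 with genes detected as a covariate. The output factor Hlf went from 151 ± 21.4 to 69.9 ± 22.3 CPM (log2 fold change -1.11 ± 0.22, edgeR adjusted p = 0.00363, and 0.00744 with STZ libraries 4 and 5 only). The clock repressor Per2 went from 124 ± 15.6 to 59.7 ± 15.1 CPM, and Tef, a relative of Hlf, from 323 ± 108 to 168 ± 26.2. The core activators Arntl (27.5 ± 26.4 CPM in controls and 11.3 ± 8.03 in STZ libraries) and Clock (163 ± 30.3 CPM in controls and 181 ± 24.0 in STZ libraries) did not pass the test. No source used here states the time of day of sampling.

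Cell cycle genes rose from low levels. Of 23 tested, 11 rose and none fell, with a median log2 fold change of 1.54. The proliferation antigen Mki67 was at 5.34, 13.6, 2.95 and 6.27 CPM in controls and 39.9, 31.1, 40.7, 33.1 and 34.9 CPM in STZ libraries, without overlap (log2 fold change 2.35 ± 0.38, edgeR adjusted p = 0.000750). Topoisomerase Top2a went from 3.50 ± 1.55 to 21.2 ± 6.27 CPM, the ribonucleotide reductase subunit Rrm2 from 2.66 ± 0.944 to 18.2 ± 5.27, and the replication helicase subunit Mcm2 from 7.41 ± 2.78 to 21.5 ± 6.39. Cyclin B1 (Ccnb1), which starts mitosis, had no reads in any control and 1.98 ± 0.373 CPM in STZ libraries, at least 9.61-fold higher with each control set at a floor of 3 counts. The count was 9 to 12 when a library was left out, and 2 with STZ libraries 4 and 5 only, where Mki67 and Top2a kept their calls. It was 6 with genes detected as a covariate. These 4 genes (Mki67, Top2a, Rrm2 and Mcm2) were 0.537 to 0.876 times as high in TRAP as in whole kidney RNA. The stress pseudokinase Trib3 likewise had no reads in controls and 2.40, 1.43, 1.14, 2.39 and 2.23 CPM in STZ libraries, at least 9.31-fold higher on the same floor. It was the single call among 16 genes of the integrated stress response, where leaving out 1 library gave 1 to 3 higher and 0 to 2 lower. Calls that rose were 2 without control library 4 and 3 without control library 2.

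Most lists of podocyte genes held no call. None of 17 slit diaphragm genes, 9 podocyte transcription factors, 11 podocyte surface proteins or 14 podocyte markers passed the test in edgeR, with median log2 fold changes of -0.28, -0.36, -0.35 and -0.34. At an unadjusted p under 0.05 these lists held 3, 1, 2 and 1 lower members and no higher one, and DESeq2 called 1, 0, 0 and 0 members in either direction. Of 24 podocyte actin cytoskeleton genes, 2 rose, moesin (Msn) and the actin-binding protein anillin (Anln, log2 fold change 3.69 ± 1.10, edgeR adjusted p = 0.0459), with 1 to 4 when a library was left out (1 without control libraries 1, 2 or 4 or STZ libraries 1, 2, 3 or 5 and 4 without STZ library 4). None of that list was called with STZ libraries 4 and 5 only, and 1 with genes detected as a covariate. Nephrin (Nphs1, chr7:30458315-30487223) was at 1630, 930.4, 1225 and 1339 CPM in controls and 536, 522, 556, 1159 and 979.8 CPM in STZ libraries. Its groups overlapped, and the log2 fold change was -0.77 ± 0.33 (edgeR adjusted p = 0.172). Podocalyxin (Podxl), the sialoprotein that coats the foot processes, was at 8322, 4287, 5605 and 8388 CPM in controls and 3825, 3787, 3682, 8321 and 6556 CPM in STZ libraries, and its groups overlapped. With STZ libraries 4 and 5 only, the log2 fold changes of Wt1, Podxl and Synpo were 0.34, 0.19 and 0.23, the opposite sign of those with all libraries (-0.18, -0.35 and -0.40), and none was called. A p that misses the threshold does not show equal levels: the SE of Nphs1 was 0.33 on the log2 scale.

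The 6 genes at least 4-fold enriched in TRAP that were called all fell, by 0.79 to 2.09 on the log2 scale. They were the potassium channel Kcna6, Klhl29, the adenylyl cyclase Adcy5, 2010111I01Rik, the TGF-beta feedback inhibitor Pmepa1 and the mannosidase Man1a2. Pmepa1 was at 186, 148, 198 and 270.1 CPM in controls and 84.3, 105, 95.1, 137 and 129.9 CPM in STZ libraries, with no overlap (log2 fold change -0.87 ± 0.25, edgeR adjusted p = 0.0415). Adjusted p-values of the 6 ranged from 0.0211 to 0.0497. Each lost its call in 5 to 8 of the 9 fits that left out 1 library, and none was called with STZ libraries 4 and 5 only.

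Genes of the glomerular basement membrane and matrix moved both ways. Of 23 tested, 4 rose and 1 fell. The number that rose was 1 without control libraries 1, 3 or 4 or STZ libraries 1, 2 or 3, and basement membrane calls numbered 0 higher and 0 lower with STZ libraries 4 and 5 only, and 0 and 0 with genes detected as a covariate. The collagen IV chains Col4a1 and Col4a2, made by mesangial and endothelial cells as well, were at 235 ± 107 CPM in controls and 477 ± 148 in STZ libraries and at 203 ± 106 CPM in controls and 467 ± 181 in STZ libraries. The gene of the mature podocyte chain, Col4a4, fell from 1060 ± 219 to 630.1 ± 180 CPM. These 3 calls were each lost in 6 of 9 fits that left out a library, and the groups overlapped. Fibronectin (Fn1), a matrix glycoprotein, was at 18.8, 50.5, 34.5 and 18.96 CPM in controls and 228, 171, 247, 33.8 and 61.7 in STZ libraries, so that STZ libraries 1 to 3 were high and STZ library 4 lay within the control range. The actin-linking protein moesin (Msn) went from 173 ± 58.5 to 425 ± 97.6 CPM with no overlap (edgeR adjusted p = 0.00266), and vascular endothelial growth factor B (Vegfb) from 59.8 ± 3.68 to 37.9 ± 5.18 CPM (adjusted p = 0.0109). Neither was called with STZ libraries 4 and 5 only. No gene among 34 ribosomal proteins, 39 nuclear oxidative phosphorylation subunits or 12 genes of the mitochondrial chromosome was called.

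**Figure D4:**
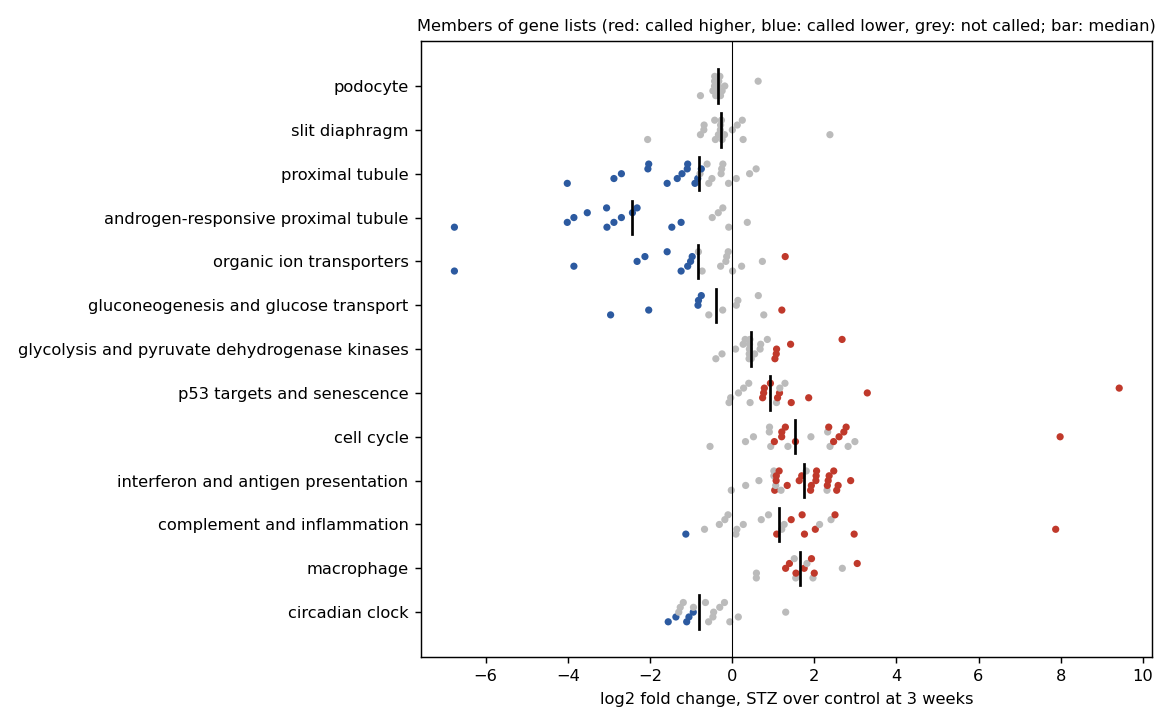
Each point is a tested member of a gene list at its log2 fold change (STZ over control at 3 weeks), red where called higher, blue where called lower, grey where not called, with a bar at the list median. Podocyte and slit diaphragm genes hold no call (medians -0.34 and -0.28), androgen-responsive genes lie to the left (median -2.43), and interferon genes to the right (1.75).

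The effect of STZ at 24 weeks, measured against its own controls, was set beside that at 3 weeks. At 24 weeks 146 of 16279 genes were called (0.897%). The test of the difference between both effects called none in edgeR (0%), with 1092 genes at an unadjusted p under 0.05. DESeq2 called 64, limma on log2(FPKM + 1) called 2 and edgeR on all 36 TRAP libraries called 14. Of the genes called at 3 weeks, 115 were also called at 24 weeks, all in the same direction (55 higher and 60 lower), which is 10.9% of the calls at 3 weeks and 78.8% of those at 24 weeks. The p53 target Eda2r had a log2 fold change of 9.43 at 3 weeks and 2.57 at 24 weeks, the first set by the prior count because the controls held 1 read, and Ccng1 1.15 and 0.43. G6pc and Pck1 stood at -2.96 and -2.03 at 3 weeks and at 0.04 and -0.08 at 24 weeks, where neither was called, but the difference was not called either. Among the genes called at both times were Cyp4b1 (-2.70 and -1.84), Kap (-4.02 and -4.68), Slco1a1 (-6.76 and -5.52), Cd36 (-2.16 and -1.50), Ugt1a2 (7.42 and 6.01) and C3 (2.51 and 2.37). Of the interferon list 6 rose at 24 weeks, and of the p53 list 4.

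The effect of STZ at 3 weeks was also compared with that of db/db at 3 months of age. The db/db and control mice there both lack eNOS, so genotype, cause and duration of diabetes cannot be told apart. The difference between effects was called at 174 of 18511 genes (0.94%), with 69 higher in db/db (0.373%) and 105 lower (0.567%). Without STZ library 3 it was 85, without STZ library 1 89, without STZ library 2 96 and without control library 1 99.

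Differences were fitted over all 36 TRAP libraries and can depart slightly from the subtracted effects. Of the p53 list, 3 members had a lower effect in db/db and 1 a higher one. The db/db effect on Eda2r was 2.52, a fitted difference of -7.00 that depends on the same prior count (edgeR adjusted p = 0.0133), and that on Ccng1 was 0.18 (difference -0.99, adjusted p = 0.0160). For B2m it was -0.09 against 1.93 (difference -2.04, edgeR adjusted p = 0.0329), for H2-D1 -0.53 against 1.07 and for Gbp6 -0.37 against 3.99. Across the interferon list the median was -0.02 in db/db and 1.75 in STZ mice, and 5 members differed, all lower in db/db. The epithelial integrin Itgb6 rose with STZ (57.9 ± 19.1 to 176 ± 21.6 CPM), and its db/db effect was -0.31 (difference -1.94, edgeR adjusted p = 0.00779).

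Genes of gluconeogenesis, the clock and vitamin D differed in the other direction. G6pc and Pck1 had db/db effects of 0.14 and 0.23 (differences 3.07 and 2.23, edgeR adjusted p = 0.00498 and 0.0120). Per2 and Hlf had effects of 0.83 and 0.41 against -1.05 and -1.11, and 4 of the 18 clock genes differed, all higher in db/db. Cyp27b1, which activates vitamin D, was called in opposite directions: 2.16 in db/db and -2.42 with STZ (difference 4.55, edgeR adjusted p = 0.00267). The secreted factor Angptl7 differed by 3.15. The injury markers Havcr1 (3.82 in db/db and 3.96 with STZ), Spp1 (2.67 and 2.49) and the complement gene C3 (3.61 and 2.51) rose in both models, and the tests of their differences missed the threshold (edgeR adjusted p = 0.978, 0.929 and 0.436).

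**Figure D5:**
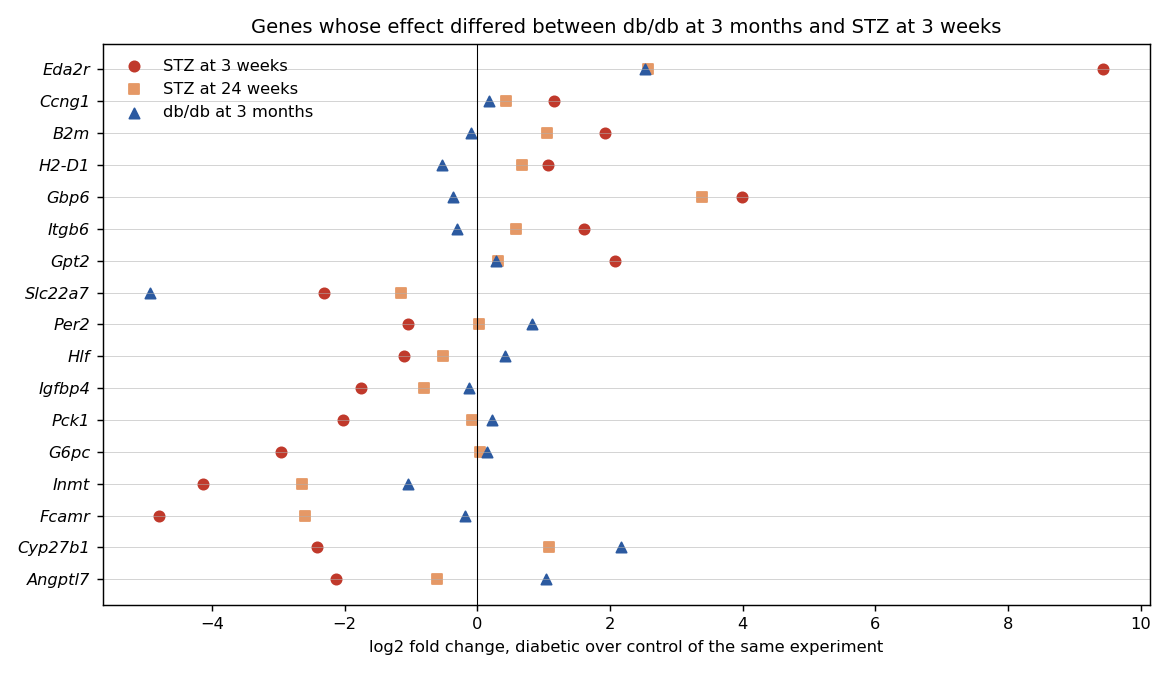
Log2 fold changes of diabetic over control libraries of the same experiment for 17 genes (circles, STZ at 3 weeks; squares, STZ at 24 weeks; triangles, db/db at 3 months). Eda2r stands at 9.43, 2.57 and 2.52, and Cyp27b1 at -2.42, 1.08 and 2.16.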

How the data were processed

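TRAP RNA was sequenced from 36 podocyte libraries, beside 1 whole kidney library. Per the labels' protocols, libraries were made with the NuGEN Ovation kit for mouse. The tools cutadapt 1.16, STAR, featureCounts and FastQC, and build mm9, are listed in the submitters' processing notes. The authors deposited raw counts and FPKM for 32108 genes, and the deposited FPKM values equal those computed from the counts for 100% of values within 0.001. The deposited coordinates overlap those of GRCm38 for 99.981% of the 31871 genes matched by identifier, so gene positions are given on that scale as deposited, although the notes say mm9.

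The deposited counts were tested with edgeR 4.0.16 in R 4.3.3 (robust quasi-likelihood, TMM, default filter on low counts, Benjamini-Hochberg adjusted p under 0.05). The 19 type 1 libraries shared a fit, and all 36 TRAP libraries shared the fit for the db/db comparison. Genes that passed are called; CPM are TMM-scaled. Alternatives used limma 3.58.1, DESeq2 1.42.0, other filters, covariates and left-out libraries. The procedure was tested on simulated data. TRAP enrichment is the ratio of CPM + 0.5, with CPM here scaled to library totals without TMM.

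Genes were named by a rule: in each direction, the 12 called genes of largest log2 fold change (mean of at least 10 CPM, groups apart) and up to 6 enriched 4-fold in TRAP; for each list holding 3 or more calls, up to 4 members ranked by p, and up to 2 called members elsewhere; 12 genes as checks of label and tissue; and up to 5 in each direction from each test of a difference. Other list members are given to fill a list's account and were chosen after their values were seen. The lists and the comparison were chosen with earlier results of these data known. Of the list members, 25 did not pass the filter. Some named genes are not reported here. Motifs were searched with Python 3.11.15, and figures drawn with matplotlib 3.10.9.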

Additional observations from a re-analysis of the deposited data

Results flagged for a closer look

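In 13 of 278 groups of 4 or 5 libraries checked, 1 library lay far from the others, judged by its gap to the nearest library as a share of the group's range. Chance alone gives this in about 1 in 20 groups. These were Gsta2 in control library 2 (0.0748 CPM, share 0.863), Sod1 in control library 1 (421 CPM, share 0.962), Srxn1 in STZ library 4 (83.8 CPM, share 0.726), Errfi1 in STZ library 5 (423 CPM, share 0.898), Thbs1 in control library 4 (74.0 CPM, share 0.868) and Eda2r in control library 2 (0.0748 CPM, share 1). The others were Slc17a1 in control library 2 (194 CPM, share 0.834), Wfdc2 in control library 4 (8.19 CPM, share 0.962), Dcn in control library 3 (2.80 CPM, share 0.868), Cx3cr1 in control library 3 (3.98 CPM, share 0.867), C1qa in control library 4 (6.63 CPM, share 0.928), Cd8a in STZ library 4 (0 CPM, share 0.901) and Heatr5b in control library 3 (76.6 CPM, share 0.83). All but 3 of them, in Srxn1, Errfi1 and Cd8a, were control libraries. For Eda2r the share of 1 comes from a single read.

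The effect of db/db differed from that of STZ at 3 weeks, by edgeR's test of the difference itself, at 29 of the named genes. The log2 difference (db/db effect minus STZ effect) was positive for Fcamr (4.605), Inmt (3.067), Col27a1 (3.68), Kcna6 (3.186), Pmepa1 (1.309), Vegfb (0.78), Igfbp4 (1.609), G6pc (3.072), Pck1 (2.231), Hlf (1.506), Per2 (1.863), Adamtsl5 (3.194), Cyp27b1 (4.552) and Angptl7 (3.151). It was negative for Gsta2 (-3.179), Gbp8 (-5.497), Gbp6 (-4.386), Nqo1 (-1.247), Trib3 (-6.846), B2m (-2.035), Thbs1 (-1.379), Eda2r (-7.003), Ccng1 (-0.993), Slc22a7 (-2.631), Gpt2 (-1.801), Itgb6 (-1.935), Heatr5b (-0.828), H2-D1 (-1.619) and Exoc4 (-1.157). For Trib3 and Eda2r, with 0 and 1 reads in the 4 controls at 3 weeks, the size of the difference depends on the prior count and is no bound. The mice of the db/db experiment all lack eNOS, which cannot be told apart from the cause of diabetes. Adamtsl5 and Heatr5b were not called with STZ at 3 weeks.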

How the results depend on the processing

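The count of called genes at 3 weeks was 1058 (616 higher, 442 lower). DESeq2 gave 1735 (1058 higher, 677 lower) and a fit of the 9 libraries alone 599 (308 higher, 291 lower). A fit of all 36 TRAP libraries gave 1636 (1004 higher, 632 lower). With a proximal tubule score as covariate the count was 1883 (1144 higher, 739 lower). That score was the mean log2 CPM of the listed markers not called in the main test, so no marker called lower entered it. Adjustment for the whole marker list was not tested. Over the genes at least as high in TRAP as in kidney the count was 200 (117 higher, 83 lower), where fewer genes were tested. Chosen after seeing the data, STZ libraries 4 and 5 only gave 94 (45 higher, 49 lower), with fewer samples. Also chosen so, genes detected as covariate gave 405 (192 higher, 213 lower), and limma-voom with quality weights 2224 (1343 higher, 881 lower). The weights of STZ libraries 1 to 5 were 1.64, 2.92, 4.21, 0.203 and 0.715. Control libraries 1 to 4 had 0.696, 0.442, 1.07 and 0.558, so that fit leaned most on STZ libraries 1 to 3. Without a filter on low counts the lower count was 289, and with limma on log2(FPKM + 1) it was 294. Leaving out 1 library gave 611 to 1350 genes (357 to 917 higher, 254 to 445 lower). The cause of these shifts was not tested unless named.

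The difference between 24 and 3 weeks, called at no gene in edgeR, was called at 64 (9 higher, 55 lower) by DESeq2, 2 (0 higher, 2 lower) by limma and 14 (2 higher, 12 lower) over all 36 TRAP libraries, and at 0 to 3 when 1 library was left out (0 to 1 higher, 0 to 3 lower). The difference between db/db and STZ was 174 (69 higher, 105 lower), and 99 (45 higher, 54 lower) without a filter, 462 (235 higher, 227 lower) by DESeq2 and 108 (46 higher, 62 lower) by limma. The stricter filter gave 121 higher, and leaving out 1 library 85 to 243 (36 to 87 higher, 47 to 163 lower).

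Replicate numbers did not pair the libraries (correlations of same-numbered deviations -0.105, 0.106, 0.0514 and 0.0969). With the number as a block, the 3 counts were 977 (601 higher, 376 lower), 1 (1 higher, 0 lower) and 118 (39 higher, 79 lower).

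Of the values of single genes under other settings, 2737 kept direction and side of the threshold, 413 fell short of it, 8 newly passed it and 10 changed sign. None of the 10 was of a called gene: with STZ libraries 4 and 5 only Wt1 was 0.341, Podxl 0.189, Synpo 0.232, Rpl10a 0.062, Insr -0.059 and Pecam1 -0.338; with genes detected as covariate Insr was -0.058 and Pecam1 -0.074; without control library 4 Rpl10a was 0.067 and Insr -0.022 (ranges over left-out libraries -0.474 to 0.067 and -0.022 to 0.22). Of 126 called genes among those named, 92 stayed called in each fit that left out 1 library and 30 with STZ libraries 4 and 5 only. Genes under a few CPM rest on few reads, so their folds are the least certain.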

Other observations

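Marker genes of other renal cells and of hormone systems gave values not described above. Of 7 markers of parietal epithelial cells, which line Bowman's capsule, 3 rose: Wfdc2, keratin 18 (Krt18) and claudin 1 (Cldn1), the last without overlap, from 13.8 ± 4.39 to 31.0 ± 6.64 CPM, and lost in 3 of 9 fits that left out 1 library. Of 12 mesangial and smooth muscle markers, 3 rose, among them smooth muscle actin (Acta2), from 20.4 ± 4.40 to 46.8 ± 16.7 CPM. The number that rose was 1 without control libraries 1 or 4 or STZ libraries 1, 2 or 3 and 5 without control library 2, and none of the list was called with STZ libraries 4 and 5 only or with genes detected as a covariate. The sodium channel subunit Scnn1b of the collecting duct rose from 11.4 ± 4.90 to 34.1 ± 10.5 CPM. None of Cldn1, Acta2 and Scnn1b was called with STZ libraries 4 and 5 only.

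Angiotensin-converting enzyme (Ace) fell from 102 ± 38.8 to 36.9 ± 11.2 CPM, and angiotensinogen (Agt), the precursor of angiotensin, rose from 13.2 ± 8.27 to 46.4 ± 8.46 CPM (edgeR adjusted p = 0.00477 and 0.0157). The vitamin D-binding protein Gc, a plasma carrier, rose from 6.18 ± 3.00 to 83.0 ± 31.8 CPM and stayed called with STZ libraries 4 and 5 only (edgeR adjusted p = 0.00470). The collagen gene Col27a1 fell from 78.1 ± 46.3 to 9.53 ± 1.86 CPM, and the actin cross-linker filamin C (Flnc) rose from 2.20 ± 1.42 to 34.9 ± 32.2 CPM, with STZ libraries 1 to 5 at 29.5, 83.6, 48.0, 7.32 and 6.10 CPM. With STZ libraries 4 and 5 only, the log2 fold change of Flnc was 1.64 against 4.00 (edgeR adjusted p = 0.270), and Ace, Agt and Col27a1 were not called either (adjusted p = 0.0518, 0.221 and 0.125).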
